A study of Mus musculus with 20 samples.

Results

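The genes described here are 34 genes of fatty acid uptake and oxidation, taken by name from a deposited table of 22564 protein-coding genes, in which each of them was found once. They were measured by RNA sequencing of total RNA, depleted of ribosomal RNA, from hearts and tibialis anterior (TA) muscles of mice. Each tissue had 5 groups with 2 libraries each, 20 libraries in all. The first group was trans/mdx mice given UAA, an unnatural amino acid supplied as NAEK at 50 mg every few days for 4 weeks. The second was trans/mdx mice left without UAA. The third was mdx mice, which carry a nonsense mutation in the dystrophin gene, the fourth was transgenic mice carrying the UAA incorporation system, and the fifth was wild-type mice. The trans/mdx mice came from crosses of transgenic and mdx mice, so both trans/mdx groups carry the mutation and the transgene. The mdx mice are labelled C57BL/10 and all other groups C57BL/6N, so in mdx against wild type the mutation and the strain cannot be told apart. The trans/mdx mice carry the label C57BL/6N although the mdx mice of the crosses are labelled C57BL/10. Their background may therefore be mixed. The transgenic mice were made by injecting linearized plasmids into fertilized eggs. The promoter of the transgene, the number of founder lines and the ages of the mice are not stated in the labels. The 2 untreated trans/mdx muscle libraries are labelled transgenic in their genotype field, and were placed in the untreated trans/mdx group by their titles and by the entry without UAA in their treatment field. The labels describe the replicates of a group as different mice. They do not say which heart and which muscle came from the same mouse.

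Long-chain fatty acids reach a muscle cell from albumin or from triglycerides cut by lipoprotein lipase, cross its membrane with the help of CD36, are carried by the fatty acid binding protein FABP3 and are activated to acyl-CoA. The carnitine shuttle (CPT1, the translocase encoded by Slc25a20, and CPT2) takes the acyl groups into mitochondria, where each turn of the beta-oxidation spiral removes an acetyl unit and passes electrons through the electron transfer flavoprotein to the respiratory chain. The heart covers most of its energy need this way, whereas fast limb muscles such as the TA rely more on glycogen and glucose. Nuclear receptors of the PPAR and ERR families and their coactivator PGC-1alpha are known to drive many of these genes, and both receptor families bind DNA elements built around the half-site AGGTCA.

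The upstream sequences of 5 genes are shown. They were chosen to include a fatty acid transporter, a shuttle enzyme, a spiral enzyme and an uncoupling protein whose levels are compared below. They also include most of the region between the RefSeq start sites of the 2 genes of the trifunctional protein. Each line is the 250 bases before the RefSeq start site on the gene's own strand, 5′ to 3′, from the RefSeq promoter table of build GRCm38.p6. The windows of Cd36 and Cpt1a lie inside the GENCODE spans of these genes (chr5:17781690-17888801 and chr19:3322334-3385733). Their start sites are therefore not the outermost annotated ones. Capitals mark AGGTCA or its complement TGACCT, which every line but that of Hadhb holds. The positions are chr3:153944644-153944893 on the minus strand for Acadm, chr5:17835897-17836146 on the minus strand for Cd36, chr19:3323051-3323300 on the plus strand for Cpt1a, chr7:100472741-100472990 on the plus strand for Ucp3, and chr5:30155003-30155252 on the plus strand for Hadhb.
Acadm: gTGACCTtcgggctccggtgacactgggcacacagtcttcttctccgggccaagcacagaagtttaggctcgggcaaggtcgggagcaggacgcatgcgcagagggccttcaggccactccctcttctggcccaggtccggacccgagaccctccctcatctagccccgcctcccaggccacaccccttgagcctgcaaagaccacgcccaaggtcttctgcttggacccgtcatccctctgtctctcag
Cd36: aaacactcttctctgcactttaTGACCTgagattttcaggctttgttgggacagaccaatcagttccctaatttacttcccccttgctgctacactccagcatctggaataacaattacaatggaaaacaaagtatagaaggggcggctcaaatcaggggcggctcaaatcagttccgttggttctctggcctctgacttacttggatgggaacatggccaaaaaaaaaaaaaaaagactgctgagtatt
Cpt1a: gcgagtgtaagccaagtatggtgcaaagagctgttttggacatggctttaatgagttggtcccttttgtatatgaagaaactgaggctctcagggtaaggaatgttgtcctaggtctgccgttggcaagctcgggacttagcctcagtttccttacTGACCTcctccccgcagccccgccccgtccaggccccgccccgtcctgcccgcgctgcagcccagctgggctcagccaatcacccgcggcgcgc
Ucp3: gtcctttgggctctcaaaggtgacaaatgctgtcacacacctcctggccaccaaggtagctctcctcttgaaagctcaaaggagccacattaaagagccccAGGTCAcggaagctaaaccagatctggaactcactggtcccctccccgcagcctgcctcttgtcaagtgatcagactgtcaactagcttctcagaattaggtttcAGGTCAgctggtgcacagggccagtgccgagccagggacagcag
Hadhb: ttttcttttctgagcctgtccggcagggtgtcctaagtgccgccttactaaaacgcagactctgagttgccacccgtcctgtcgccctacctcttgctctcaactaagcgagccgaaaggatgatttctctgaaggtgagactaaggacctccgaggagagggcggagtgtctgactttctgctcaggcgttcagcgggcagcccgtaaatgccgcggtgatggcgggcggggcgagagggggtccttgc
The promoter table held 28 of the 34 genes in 32 promoters, each reaching from 250 bases before to 50 bases after a start site. The half-site AGGTCA, on either strand, occurred in 8 of those 32 promoters (25.0%), against 16.3% of all 32851 mouse promoters in the table. The genes with a match were 7 of the 28, namely Acadm, Acadvl, Cd36, Cpt1a, Echs1, Plin5 and Ucp3. The lines printed above are therefore richer in the half-site than the 28 genes are. In Ucp3 the half-site stood in the same orientation at 149 and 44 bases before the start site. Longer elements that contain the same half-site were searched on both strands. The extended ERR half-site TCAAGGTCA was in 0 of the 32 promoters and in 0.423% of all, and the PPAR repeat AGGTCANAGGTCA was in 0 of the 32 and in 0.0396% of all. These letters are a description of the windows, and say nothing of binding. Hadha and Hadhb, which encode the alpha and beta subunits of the mitochondrial trifunctional protein, lie head to head on chromosome 5. Their RefSeq start sites are at 30154980 and 30155253, 273 bases apart, and the sequence printed for Hadhb covers most of the stretch between them. In GENCODE, Hadha reaches to 30155162 and Hadhb begins at 30155248, so part of that sequence lies within annotated Hadha.

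The deposited values are FPKM, fragments per kilobase of transcript, scaled by the number of mapped fragments. Their sum over the table was between 113544 and 171689 in hearts and between 136461 and 208611 in muscles. Read depth is not stated. The spacing of low values corresponds to about 3060000 to 4120000 fragments in a heart and 1990000 to 2560000 in a muscle, with 79.3 to 91.1% of low values within 4% of a whole number of steps, and precision falls with level. Messenger RNAs of the mitochondrial genome took 43.3 to 59.8% of the summed FPKM in hearts and 21.9 to 31.3% in muscles. These shares are not like for like, because mt-Nd1 was listed at 0 in 9 of 10 hearts, at 17220 FPKM in replicate 1 of the treated trans/mdx hearts and at 7462 to 12794 FPKM in muscles, which also enters the TPM scaling. The marker lists matched the labelled tissues. All 10 cardiomyocyte markers were higher in heart and all 12 markers of fast skeletal fibres were lower in heart in the limma test used throughout, and the fast fibre list summed to 63.1 to 151 FPKM in hearts and 18610 to 38035 FPKM in muscles. In bulk tissue, fewer cells of a type and less RNA per cell cannot be told apart.

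Most of these genes were expressed at higher levels in heart than in TA muscle. Differences are log2 differences of FPKM + 1, heart minus muscle, averaged over the 5 groups and fitted with limma on all 20 libraries (10085 genes tested, two-sided, Benjamini-Hochberg adjusted p below 0.05). The added 1 understates the change of genes with low values. Of the 34 genes, 24 were higher in heart and 2 were lower, where 10.4% of all tested genes were higher and 31.2% were lower (41.6% in either direction). At an unadjusted p below 0.05, 27 were higher and 3 lower, where 12.3% and 36.6% of all genes were. The median of the 34 differences was 0.99, against -0.25 over all genes. Of the 34, 29 lay above 0, where 32.1% of all genes did. In 13 of the 34 every heart library exceeded every muscle library, where 2.84% of all genes did so. The split of all genes depended on scaling. It was 1046 higher and 3151 lower on the deposited scale, 1384 and 2647 after conversion to TPM, 2118 and 1952 after quantile normalization, and 1945 and 2097 after median-of-ratios scaling. Under the last 3 scalings the 34 genes gave 28, 29 and 29 higher, and 1 lower each time.

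**Figure D1:**
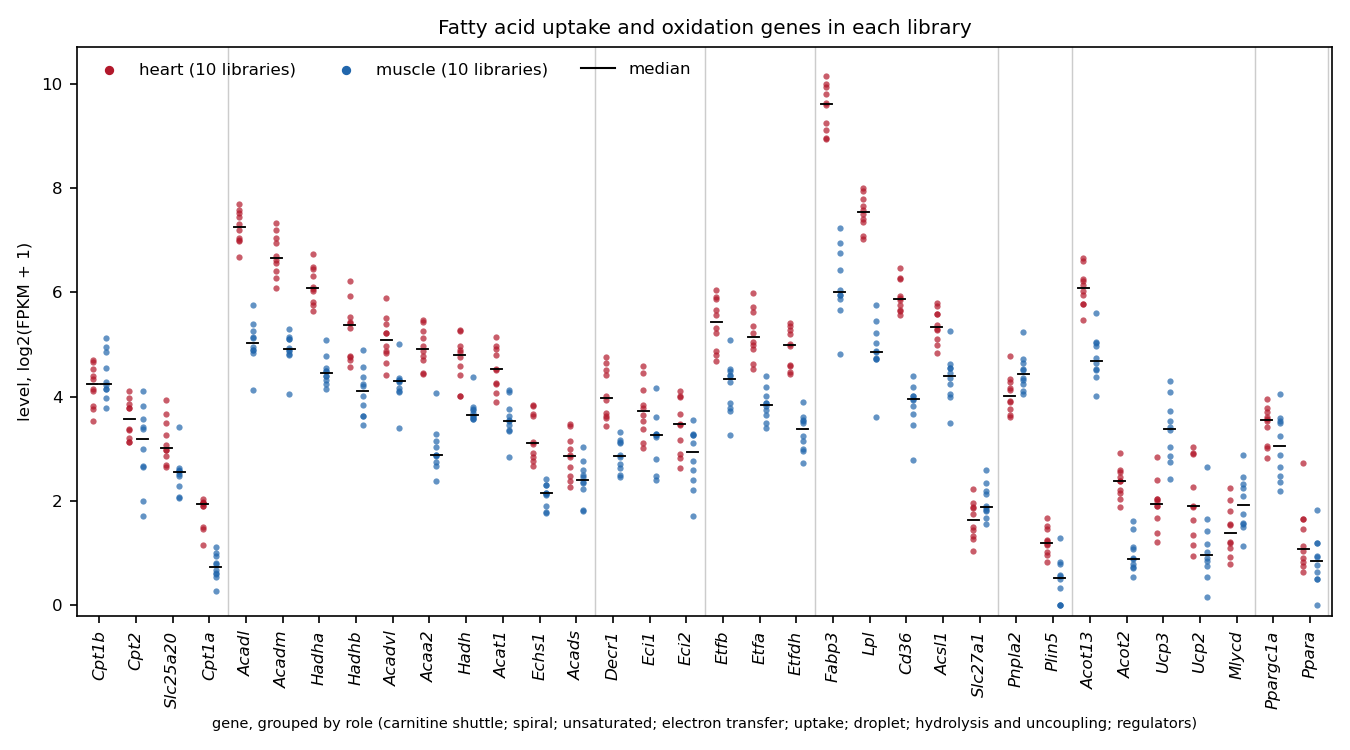
Level of each of the 34 genes as log2(FPKM + 1) in the 10 heart libraries (red) and the 10 muscle libraries (blue), with the median as a black line; genes are grouped by role. Fabp3 stands highest in both tissues, and 13 genes have every heart point above every muscle point.

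The genes of uptake and activation differed most. Fabp3, the cytosolic carrier of long-chain fatty acids in heart, was the most abundant of the 34 genes in both tissues by median FPKM. Its lowest, median and highest levels were 488, 781 and 1126 FPKM in hearts and 27.3, 63.0 and 149 FPKM in muscles. The ranges lay far apart, and the log2 difference was 3.36 (SE 0.19, limma adjusted p = 5.69e-11). Fabp3 overlaps Zcchc17 and Gm10570 on the other strand, and whether counting used strand is not given in the sources used here. Lpl, which encodes the lipoprotein lipase that frees fatty acids from circulating triglycerides, had 128, 185 and 255 FPKM in hearts, against 11.2, 28.1 and 52.9 FPKM in muscles (lowest, median, highest). Its difference was 2.63 (SE 0.17, limma adjusted p = 4.63e-10), again with no overlap. Cd36, the membrane transporter, had 46.05, 57.7 and 87.0 FPKM in hearts and 5.94, 14.5 and 20.1 FPKM in muscles. It differed by 2.10 (SE 0.16, limma adjusted p = 5.90e-09), with every heart above every muscle. Acsl1, the long-chain acyl-CoA synthetase of muscle, was also higher in heart (median 39.5 against 20.2 FPKM, log2 difference 1.003), although the tissues overlapped. Slc27a1, a transport protein of the same step, did not pass the test, with a median of 2.11 FPKM in hearts and 2.69 FPKM in muscles (difference -0.36, limma adjusted p = 0.123).

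The spiral was higher in heart at nearly every step. Of its 10 genes 9 passed the test, with a median difference of 1.16. The acyl-CoA dehydrogenases, which open each turn and differ in the chain lengths they accept, ran from large to small differences. Acadl, for long chains, had 100.7, 150.5 and 205 FPKM in hearts and 16.6, 31.9 and 52.9 FPKM in muscles as lowest, median and highest values. The log2 difference was 2.20 (SE 0.17, limma adjusted p = 4.98e-09) and the tissues did not overlap. Acadl also overlaps a processed pseudogene, Gm15793, on its own strand. Acadm, for medium chains, had 67.1, 100.1 and 160.3 FPKM in hearts and 15.5, 29.1 and 38.3 FPKM in muscles, a difference of 1.82 (SE 0.17, limma adjusted p = 1.27e-07). Acadvl, for very long chains, differed by 0.86, with medians of 33.2 FPKM in hearts and 18.6 FPKM in muscles. Acads, for short chains, was the spiral gene that did not pass, at medians of 6.24 and 4.32 FPKM in hearts and muscles (difference 0.46, limma adjusted p = 0.0621). It did pass after conversion to TPM (limma adjusted p = 0.0156). That conversion sets every library to the same, larger sum, so the added 1 also weighs less against the values.

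The later steps of the spiral followed the same direction. Acaa2, the thiolase that ends a turn for medium and long chains, had 20.5, 29.3 and 43.3 FPKM in hearts, against 4.19, 6.37 and 15.9 FPKM in muscles (lowest, median, highest). Its difference was 1.95 (SE 0.21, limma adjusted p = 6.22e-07), with no overlap. Hadha, the hydratase and dehydrogenase subunit of the trifunctional protein, differed by 1.65 and Hadhb, its thiolase subunit, by 1.18. Their levels were 66.9 and 40.3 FPKM by median in hearts and 20.8 and 16.3 FPKM in muscles. The ratio of Hadha to Hadhb within a library was between 1.44 and 2.51 in hearts (median 1.798) and between 0.854 and 1.901 in muscles (median 1.35), so the subunits were not at equal FPKM in most libraries. Echs1, the short-chain hydratase, Hadh, the short-chain 3-hydroxyacyl-CoA dehydrogenase, and Acat1, which splits acetoacetyl-CoA, differed by 1.13, 0.97 and 0.96. The electron transfer genes all passed. Etfa and Etfb, the subunits of the electron transfer flavoprotein, differed by 1.35 and 1.21, and Etfdh, the dehydrogenase that hands those electrons to ubiquinone, by 1.62. Hadha, Acadvl, Echs1 and Etfdh each overlap a protein-coding gene on the other strand, and Etfb overlaps Gm45233 on its own strand.

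Among the enzymes that prepare unsaturated chains for the spiral, Decr1, the 2,4-dienoyl-CoA reductase, differed by 1.19 with every heart above every muscle. Eci2, an enoyl-CoA isomerase, differed by 0.61 and passed, while its relative Eci1 had a difference of 0.57 and did not (limma adjusted p = 0.0600). Eci1 passed under all 3 other scalings, at 0.80 to 0.9999 (largest limma adjusted p = 0.0115).

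Of the 4 carnitine shuttle genes 2 passed on the deposited scale. Cpt1b, the muscle form of the outer membrane transferase, was not distinguishable between the tissues, with 10.6, 17.996 and 25.1 FPKM in hearts and 12.8, 18.03 and 33.9 FPKM in muscles as lowest, median and highest values (difference -0.20, SE 0.17, limma adjusted p = 0.371). Cpt1a, the form known from liver, was higher in heart. It had 1.24, 2.83 and 3.12 FPKM in hearts and 0.215, 0.664 and 1.16 FPKM in muscles, with no overlap and a difference of 1.05 (SE 0.17, limma adjusted p = 5.75e-05). Cpt1b exceeded Cpt1a in every library. The ratio was 3.87 to 13.1 in hearts (median 6.97) and 14.5 to 131 in muscles (median 29.0). The muscle ratio rests on few Cpt1a fragments, about 6.08 per library by median if counted over its longest transcript. Cpt1b also overlaps a protein-coding entry, Gm44502, on its own strand, and the fragments of both cannot be told apart by strand. Slc25a20, the translocase, passed at 0.64, and Cpt2, the inner membrane transferase, did not at 0.54 (limma adjusted p = 0.0807). Cpt2 passed under all 3 other scalings, at 0.79 to 0.97 (largest limma adjusted p = 0.0264), whereas Cpt1b passed under none of them.

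Ucp3 and Pnpla2 were lower in heart. Ucp3, an uncoupling protein of the inner mitochondrial membrane that is typical of skeletal muscle, had 1.32, 2.86 and 6.15 FPKM in hearts and 4.40, 9.48 and 18.8 FPKM in muscles (lowest, median, highest). The ranges overlapped slightly, and the difference was -1.41 (SE 0.21, limma adjusted p = 2.69e-05). Its sign was negative in all 5 groups, and it stayed below 0 and past the threshold under each scaling tried. Pnpla2, the lipase that starts triglyceride breakdown at lipid droplets, had 11.3, 15.3 and 26.4 FPKM in hearts and 15.6, 20.7 and 36.7 FPKM in muscles. The difference of -0.42 (SE 0.15, limma adjusted p = 0.0311) was lost under the other scalings and was 0.02 after quantile normalization. Mlycd, which removes the CPT1 inhibitor malonyl-CoA, was below 0 in all 5 groups without passing the test (difference -0.51, limma adjusted p = 0.0745).

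The remaining genes of hydrolysis, droplets and uncoupling were higher in heart. Acot2, a mitochondrial acyl-CoA thioesterase, differed by 1.37 and Acot13, a thioesterase of mitochondria and cytosol, by 1.34. Acot2 is nearly identical to its neighbour Acot1, so how fragments were divided between them is uncertain. Ucp2, the widely expressed relative of Ucp3, differed by 0.89, and Plin5, a droplet coat protein that ties droplets to mitochondria, by 0.74. Plin5 was the lowest of the 34 genes in muscle, at 0.444 FPKM by median and at 0 in some libraries, which amounts to about 2.09 fragments per library. The regulators did not pass on the deposited scale. Ppara, the PPAR of oxidative tissues, had medians of 1.13 FPKM in hearts and 0.805 FPKM in muscles (difference 0.43, limma adjusted p = 0.167), and Ppargc1a, which encodes PGC-1alpha, had 10.704 and 7.43 FPKM (difference 0.40, limma adjusted p = 0.143). Ppargc1a passed under all 3 other scalings, at 0.63 to 0.82 (largest limma adjusted p = 0.0363). Ppara passed after quantile normalization and median-of-ratios scaling (limma adjusted p = 0.0252 and 0.0380) and not after conversion to TPM (0.0680).

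**Figure D2:**
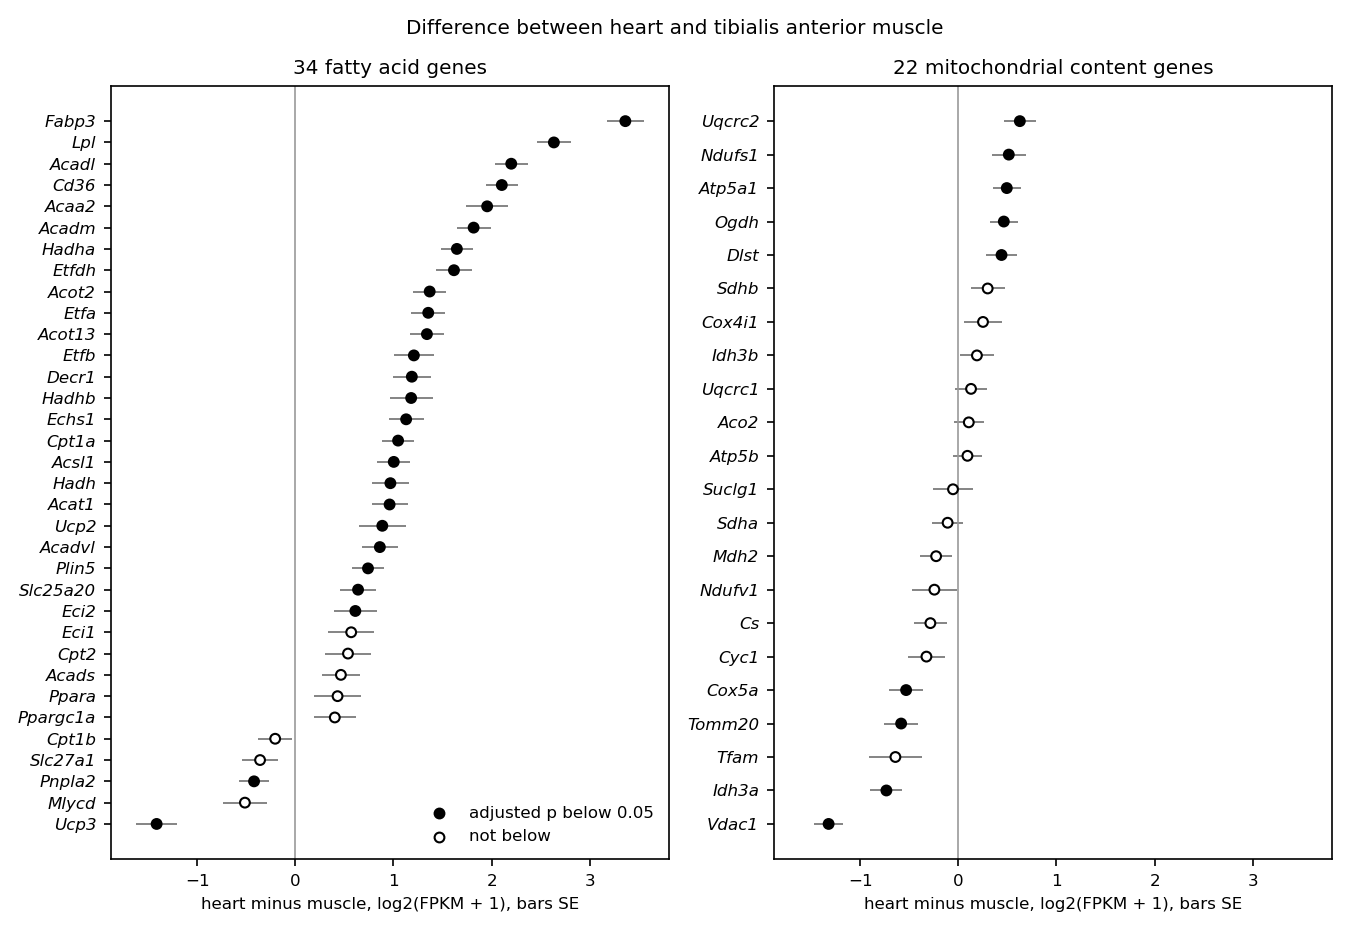
Heart minus muscle difference in log2(FPKM + 1) with its standard error for the 34 genes (left) and for 22 genes of mitochondrial content (right); filled points have an adjusted p below 0.05 in limma on 20 libraries. The 34 genes run from -1.41 for Ucp3 to 3.36 for Fabp3, and the content genes from -1.32 for Vdac1 to 0.63 for Uqcrc2.

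The difference of the oxidation genes was not matched in size by genes for mitochondrial content. A list of 22 such genes (citric acid cycle, respiratory chain, ATP synthase and outer membrane) gave 5 higher and 4 lower in heart. These are 22.7% and 18.2%, where 10.4% and 31.2% of all genes were. The median difference was 0.02, against -0.25 over all genes, so this list also stood above all genes. The 2 genes of the list with the smallest p were both lower. They were Idh3a, a subunit of isocitrate dehydrogenase, at -0.73 and Vdac1, the outer membrane channel, at -1.32. Uqcrc2, of the respiratory chain, had the largest difference toward heart. Quantile normalization moved this list to 12 higher and 2 lower with a median of 0.38, and moved the 34 genes to a median of 1.38. Per library, the mean of the 34 genes minus the mean of the 22 genes lay between -1.12 and -0.83 in hearts and between -2.19 and -1.79 in muscles on the log2(FPKM + 1) scale. The tissues did not overlap in this measure.

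**Figure D3:**
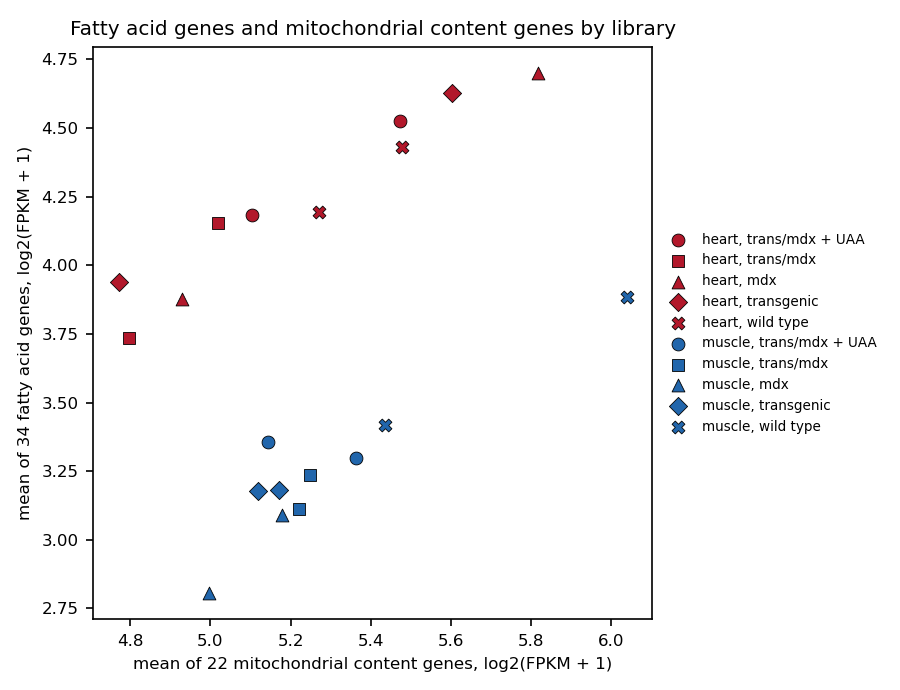
Mean log2(FPKM + 1) of the 34 genes (vertical axis) against the mean of 22 mitochondrial content genes (horizontal axis) for each library, with hearts in red, muscles in blue and groups by symbol. At like content every heart lies above the muscles, and the highest muscle point is wild-type replicate 2.

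The other genes of the pathway went in both directions, and differed by list. Of 117 listed, 116 were in the table and 103 were tested, of which 18 were higher in heart and 32 were lower, with a median of -0.21 where all genes stood at -0.25. These are 17.5% higher and 31.1% lower, beside the 10.4% and 31.2% of all genes. Among 31 other genes of mitochondrial and peroxisomal oxidation, 7 were higher and 2 lower (22.6% and 6.45%). Ech1, a dienoyl-CoA isomerase, was higher at 1.87, and Abcd2, a peroxisomal transporter of very long chains, was lower at -1.88. Of 23 other genes of uptake, activation and hydrolysis, 1 was higher and 8 were lower. The first was Acss1, the mitochondrial acetyl-CoA synthetase (2.41), and Acsl3, a synthetase of the endoplasmic reticulum and droplets, was among the others (-1.87). Of 19 genes of droplets and triglyceride handling 6 were higher and 9 lower, with Fitm1, a droplet-forming protein of muscle, at -2.01 and Lpin1, a phosphatidate phosphatase, at -1.5004. Of 27 regulators and fuel-switch genes 1 was higher and 14 were lower, among them Prkab2, an AMPK subunit (-2.83), Mlxipl, a glucose-sensing factor (-1.55), and Pdk4, the kinase that shuts pyruvate dehydrogenase when fat is burned (-0.83, limma adjusted p = 0.00124). Of the ketone use genes 3 of 4 tested were higher and 0 lower, led by Oxct1, the enzyme that activates acetoacetate (1.94), and Slc16a1, a carrier of lactate and ketone bodies (1.59).

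Markers of other cells that take up or store fat differed by cell type. Of 12 adipocyte markers 8 were lower in heart and 1 was higher, and the list summed to 69.9 to 134 FPKM in hearts and 163 to 653 FPKM in muscles. Plin1, the coat of large fat droplets, had a median of 0 FPKM in hearts and 1.70 FPKM in muscles. Fabp4, the carrier of adipocytes and capillary endothelium, had medians of 82.9 FPKM in hearts and 72.2 FPKM in muscles and did not pass the test (limma adjusted p = 0.213). Of 10 endothelial markers 4 were higher in heart, namely Kdr (0.82), Emcn (0.71), Pecam1 (0.51) and Cdh5 (0.42), and Aqp1 was lower (-1.13). Lpl and Cd36 are also expressed by such cells, and their part in the muscle and heart values was not tested.

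The tissue difference was present in each group. With 2 libraries per tissue and group, 30 of the 34 genes were above 0 in UAA-treated trans/mdx mice, 28 in untreated trans/mdx mice, 30 in mdx mice, 30 in transgenic mice and 26 in wild-type mice, with median differences of 1.07, 0.81, 1.18, 1.21 and 0.75. Cpt1b was the gene whose sign varied most. Its heart minus muscle difference was -1.20 in wild-type mice, -0.18 and -0.04 in treated and untreated trans/mdx mice, 0.23 in mdx mice and 0.17 in transgenic mice.

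A pair of libraries held most of the highest values within their tissue, and both bear on the comparisons between groups. Replicate 2 of the mdx hearts had the highest level of 23 of the 34 genes among hearts, where 29.3% of all tested genes peaked. Replicate 2 of the wild-type muscles had the highest level of 25 of the 34 genes among muscles, where 44.5% of all tested genes peaked. At the low end, replicate 2 of the untreated trans/mdx hearts held the lowest level of 16 genes and replicate 2 of the mdx muscles that of 15, where 24.4% and 17.9% of all tested genes had their lowest value. The high mdx heart and the high wild-type muscle also had the most genes at 1 FPKM or more of their tissue (7352 and 8530). Lars2, a nuclear gene with an unusually large share of the summed FPKM here, moved with these libraries. It took 5.28% in the high mdx heart and 7.08 to 10.3% in the other hearts, and 7.33% in the high wild-type muscle and 12.7 to 19.2% in the other muscles, with 19.2% in mdx replicate 2. Its part in the values was not tested.

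**Figure D4:**
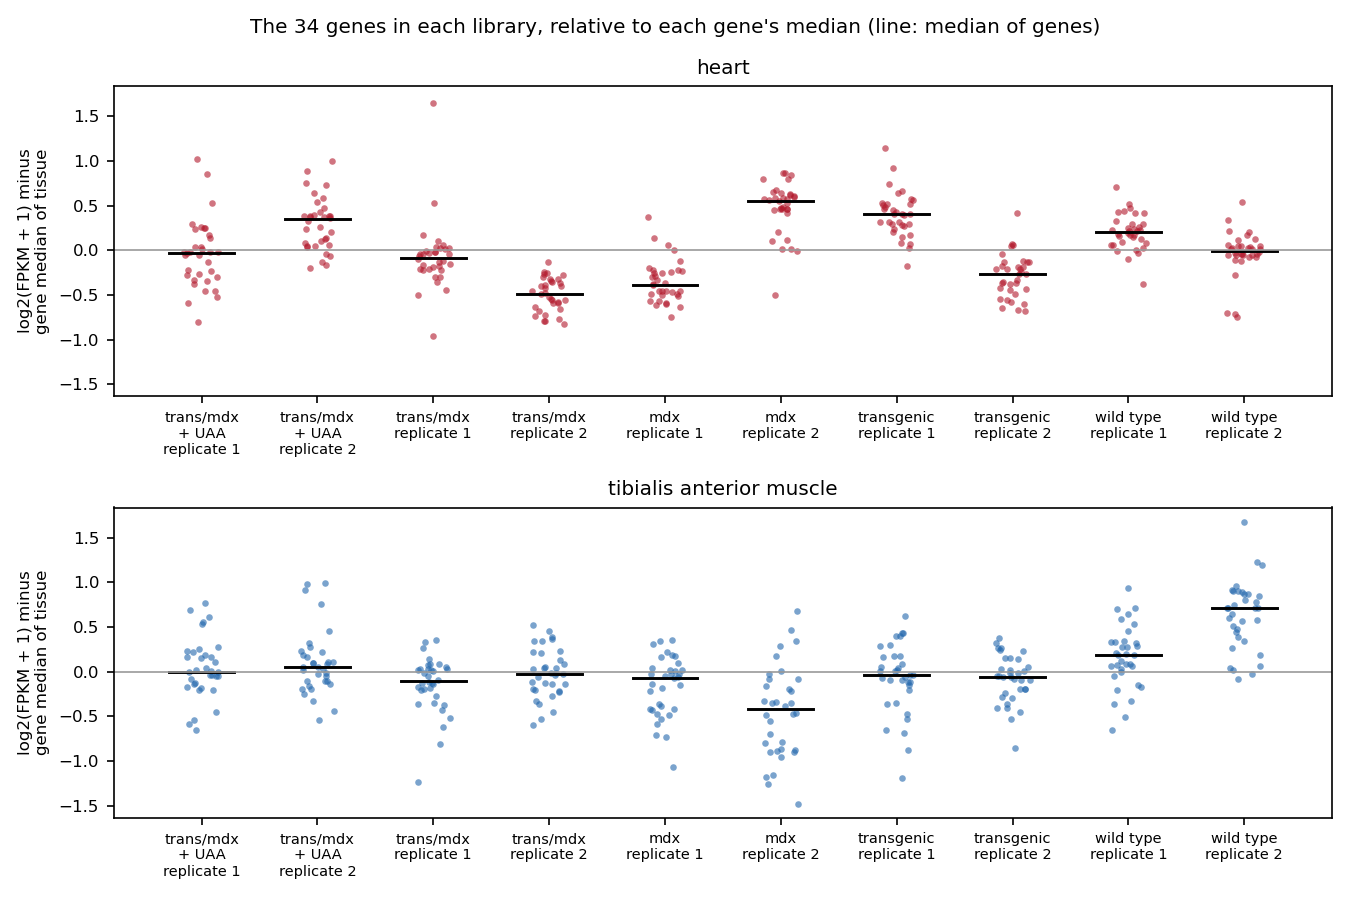
The 34 genes in each library as log2(FPKM + 1) minus the gene's median over the 10 libraries of the tissue, hearts above and muscles below; the black line is the median of the genes. The lines of the mdx heart replicate 2 and the wild-type muscle replicate 2 are the highest of their tissue. Replicates lie far apart in some groups and close in others. The mean log2(FPKM + 1) of the genes was 3.88 and 4.70 in mdx hearts and 3.42 and 3.89 in wild-type muscles, but 3.18 in both transgenic muscles.

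Within a tissue, comparisons used the 10 libraries of that tissue with 2 libraries per group, and the spread was pooled over the 5 groups (8269 genes tested in hearts, 9126 in muscles). All 34 genes passed the filter of 1 FPKM in 2 libraries in hearts and 33 did in muscles, where Plin5 did not. None of them passed the adjusted threshold in any of the 12 comparisons with limma. Genes are therefore given by their values and unadjusted p, and several comparisons share a group and are not independent of each other.

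**Figure D5:**
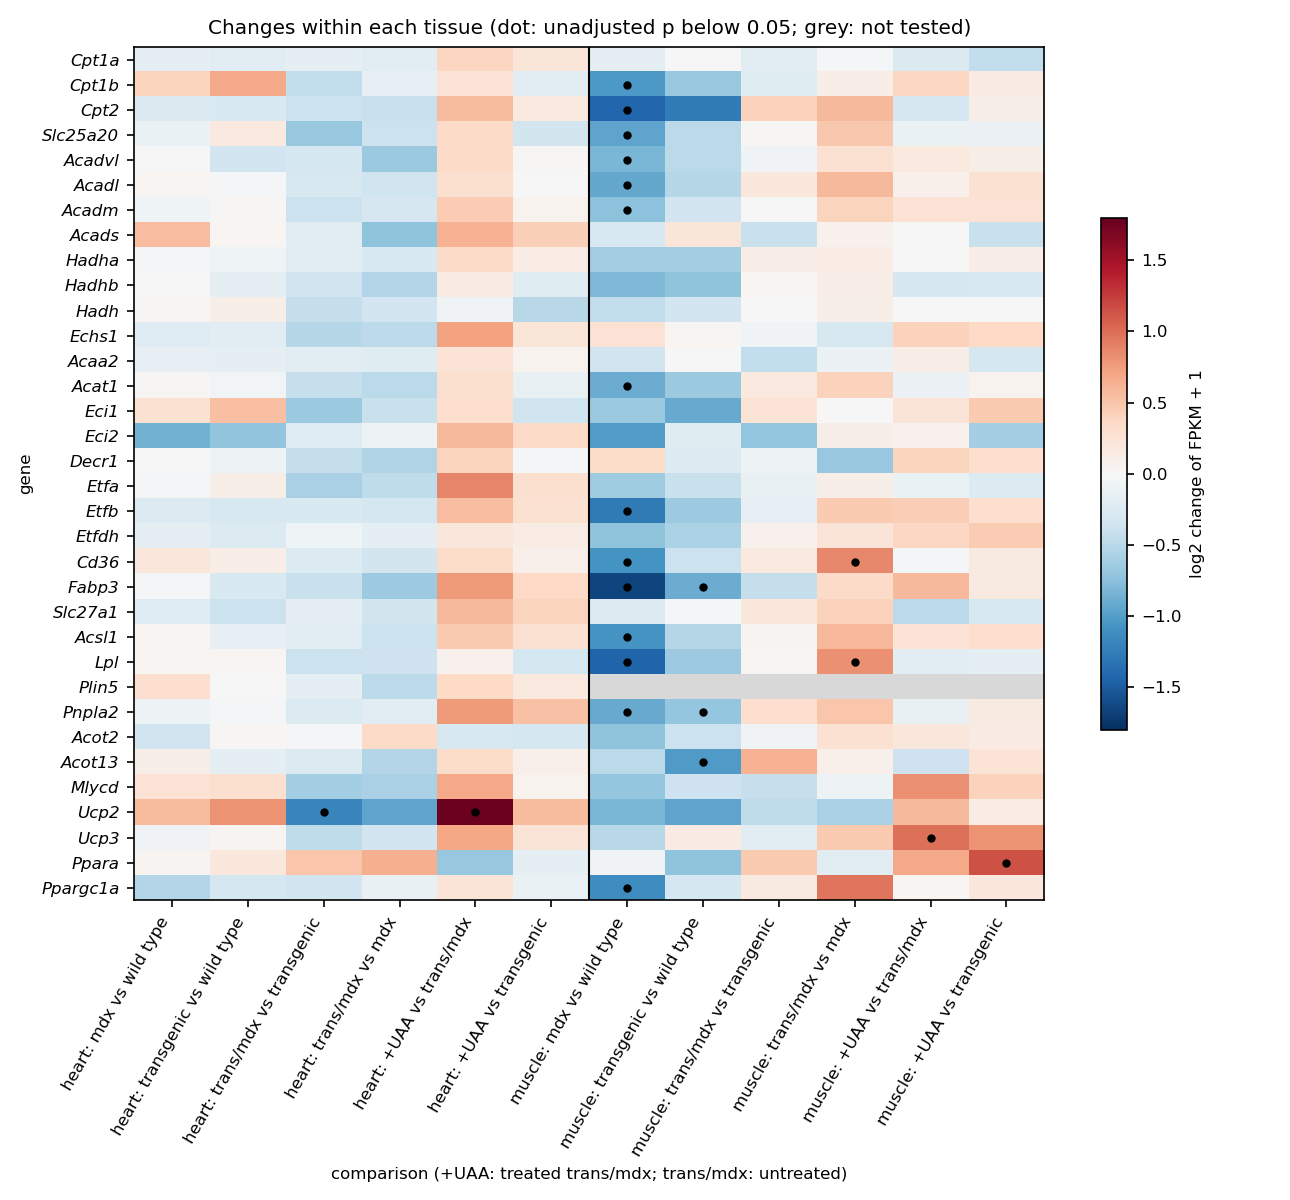
Log2 change of FPKM + 1 for each of the 34 genes (rows, by role) in 6 comparisons within hearts (left of the line) and 6 within muscles (right), red for higher and blue for lower in the first-named group. Dots mark an unadjusted p below 0.05, of which mdx against wild-type muscle has 14, and none of the changes passed the adjusted threshold.

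In TA muscle, mdx mice had lower values than wild-type mice for 31 of 33 genes. Most genes of the table moved the same way, as only 22.8% of all tested genes were above 0. The test adjusted over all genes called 0 of the 33 and 0% of all genes. At an unadjusted p below 0.05 there were 14 genes lower and 0 higher, where 9.43% of all genes were lower and 0.657% higher. The median change was -0.74, against -0.35 over all genes. Fabp3 had 64.9 and 27.3 FPKM in mdx muscles and 122 and 149 FPKM in wild-type muscles. Both mdx values lay below both wild-type values, and the log2 change was -1.65 (SE 0.40, limma adjusted p = 0.348). Lpl had 25.2 and 11.2 FPKM in mdx muscles and 42.7 and 52.9 FPKM in wild-type muscles, a change of -1.44 (SE 0.37, limma adjusted p = 0.366). Etfb had 8.67 and 12.8 FPKM in mdx muscles and 21.96 and 32.9 FPKM in wild-type muscles, a change of -1.27 (SE 0.36, limma adjusted p = 0.424). In all, 21 of the 33 genes had both mdx values below both wild-type values, where 34% of all genes did. By role, all 4 shuttle genes, all 5 uptake genes and all 3 electron transfer genes were below 0, as were 9 of 10 spiral genes. Echs1 and Decr1 were the 2 genes above 0.

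These muscle values moved with the 2 libraries named above and with the mitochondrial content genes. All 22 of the latter were below 0 with a median of -0.62, where 22.8% of all genes were above 0. Without wild-type replicate 2, 7 genes had an unadjusted p below 0.05 and the median change was -0.52. Without mdx replicate 2 there were 4 genes and a median of -0.54, and without wild-type replicate 1 there were 20 genes and a median of -1.12. Quantile normalization left 3 genes lower and 1 higher at that level, with a median of -0.35 where all genes stood at 0.00. Slow fibre markers summed to 11.5 and 92.5 FPKM in mdx muscles and 408 and 12.01 FPKM in wild-type muscles, so the wild-type pair differed in them more than the groups did. Fast fibre markers summed to 23808 and 20369 FPKM in mdx muscles and 23478 and 38035 FPKM in wild-type muscles. Endothelial markers summed to 48.0 and 37.8 FPKM in mdx muscles and 53.7 and 68.2 FPKM in wild-type muscles, without overlap, with 9 of 10 below 0. Fibroblast markers summed to 103 and 100 FPKM in mdx muscles and 117 and 221 FPKM in wild-type muscles, also without overlap. By mean log2(FPKM + 1) they did overlap, at 3.29 and 3.38 in mdx muscles and 3.23 and 4.18 in wild-type muscles. The brown adipocyte list, again without overlap, summed to 211 and 197 FPKM in mdx muscles and 258 and 395 FPKM in wild-type muscles. That list includes Cox7a1 and Cox8b, which striated muscle also expresses, and its defining gene Ucp1 was listed at 0 in 6 of 10 hearts and 9 of 10 muscles. The part of fibre makeup and of these cells in the result was not tested.

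In hearts, the same comparison showed no common shift. Of the 34 genes 0 were called, where 0.0121% of all genes were, and 0 had an unadjusted p below 0.05, where 1.63% of all genes were higher and 1.02% lower at that level. The median change was -0.01. Eci2 had 6.11 and 9.99 FPKM in mdx hearts and 14.9 and 15.2 FPKM in wild-type hearts (change -0.86, SE 0.48, limma adjusted p = 1). Acads had 6.97 and 10.2 FPKM in mdx hearts and 4.59 and 6.33 FPKM in wild-type hearts (change 0.56, SE 0.45, limma adjusted p = 1). Ppargc1a had 7.31 and 10.8 FPKM in mdx hearts and 14.6 and 12.1 FPKM in wild-type hearts (change -0.53, SE 0.44, limma adjusted p = 1). These were the 3 genes with the smallest p, and in each the groups did not overlap. Of the 34 genes 3 lay wholly above and 3 wholly below wild type, where 16.6% and 8.9% of all genes did. The median is a balance of 2 unlike hearts, since without mdx replicate 2 it was -0.47 and without mdx replicate 1 it was 0.44. The difference between the tissues in the mdx change was tested directly. It was called for 0 genes of the 34 and 0% of all genes, with Fabp3 at 1.63 (SE 0.59), Lpl at 1.47 (SE 0.54) and Cpt1b at 1.43 (SE 0.55), each with a limma adjusted p of 0.795. At an unadjusted p below 0.05 there were 4 genes higher and 0 lower, where 5.39% and 0.605% of all genes were.

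Transgenic mice against wild-type mice used the same wild-type libraries. In muscle, 0 of 33 genes and 0% of all genes were called, and at an unadjusted p below 0.05 there were 3 genes lower and 0 higher, where 9.17% and 0.734% of all genes were. Acot13 had 15.1 and 21.7 FPKM in transgenic muscles and 30.3 and 47.4 FPKM in wild-type muscles (change -1.03, SE 0.34, limma adjusted p = 0.456). Pnpla2 had 18.9 and 17.96 FPKM in transgenic muscles and 25.5 and 36.7 FPKM in wild-type muscles (change -0.70, SE 0.30, limma adjusted p = 0.489). Fabp3 had 85.6 and 60.9 FPKM in transgenic muscles and 122 and 149 FPKM in wild-type muscles (change -0.89, SE 0.40, limma adjusted p = 0.4998). Each transgenic value was below each wild-type value in these 3 genes, as in 19 of the 33 genes and in 33.8% of all genes. The median change of -0.48 stood beside -0.33 over all genes, and without wild-type replicate 2 it was -0.22. In hearts 0 of 34 genes were called, where 0.0121% of all genes were, 0 had an unadjusted p below 0.05 where 0.943% were higher and 2.43% lower, and the median change was -0.04. Ucp2 had 7.24 and 2.11 FPKM in transgenic hearts and 2.71 and 1.23 FPKM in wild-type hearts (change 0.81, SE 0.49, limma adjusted p = 1), with overlap. Cpt1b had 19.9 and 24.2 FPKM in transgenic hearts and 16.7 and 10.6 FPKM in wild-type hearts (change 0.68, SE 0.45, limma adjusted p = 1), and Eci2 had 11.7 and 6.503 FPKM in transgenic hearts and 14.9 and 15.2 FPKM in wild-type hearts (change -0.71, SE 0.48, limma adjusted p = 1). In neither of these did the groups overlap, and in all 1 gene lay wholly above and 3 wholly below wild type, where 10.9% and 16.8% of all genes did. The difference of this change between the tissues was called for 0 genes of the 34 and 0% of all genes. It was 1.37 (SE 0.55) for Cpt1b, 1.76 (SE 0.76) for Ucp2 and 1.44 (SE 0.74) for Eci1, each with a limma adjusted p of 0.987. At an unadjusted p below 0.05 there were 2 genes higher and 0 lower, where 3.54% and 1.09% of all genes were.

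Untreated trans/mdx mice were compared with each parental genotype. Against mdx mice, which are C57BL/10, the transgene and the strain cannot be told apart. Against transgenic mice, the mutation cannot be told apart from any mixed background left by the cross. In hearts against transgenic mice, 33 of 34 genes were below 0, where 38.1% of all genes were above 0. The median was -0.33, beside -0.11 over all genes. The mean log2(FPKM + 1) of the 34 genes was 4.16 and 3.73 in untreated trans/mdx hearts and 4.63 and 3.94 in transgenic hearts. Only transgenic replicate 1 thus stood above both untreated hearts, and replicate 2 lay between them. Called genes numbered 0 of 34 and 0% of all, and at an unadjusted p below 0.05 there was 1 gene lower and 0 higher, where 3.05% and 1.12% of all genes were. That gene was Ucp2, with 0.925 and 1.55 FPKM in untreated trans/mdx hearts and 7.24 and 2.11 FPKM in transgenic hearts (change -1.19, SE 0.49, limma adjusted p = 1). Slc25a20 had 6.30 and 5.49 FPKM in untreated trans/mdx hearts and 14.4 and 6.87 FPKM in transgenic hearts (change -0.68, SE 0.47). Etfa had 29.1 and 22.3 FPKM in untreated trans/mdx hearts and 48.2 and 31.0 FPKM in transgenic hearts (change -0.59, SE 0.46). The groups did not overlap in these 3 genes, and transgenic replicate 1 was the highest of the 4 hearts in each. In all 8 genes lay wholly below and 0 wholly above, where 18.9% and 7.9% of all genes did. Against mdx hearts, 32 of 34 genes were below 0, where 26.4% of all genes were above 0. The test called 0 of 34, where it called 0.0121% of all genes. An unadjusted p below 0.05 was found for 0 of the 34, where 0.593% of all genes were higher and 5.2% lower. The median was -0.37, beside -0.26 over all genes. Without mdx replicate 2 that median was 0.09. Ucp2 had 0.925 and 1.55 FPKM in untreated trans/mdx hearts and 3.84 and 2.76 FPKM in mdx hearts (change -0.95, SE 0.49, limma adjusted p = 0.889). Fabp3 had 551 and 493 FPKM in untreated trans/mdx hearts and 602 and 1126 FPKM in mdx hearts (change -0.66, SE 0.38, limma adjusted p = 0.892). Acads had 5.28 and 4.20 FPKM in untreated trans/mdx hearts and 6.97 and 10.2 FPKM in mdx hearts (change -0.72, SE 0.45, limma adjusted p = 0.897). The groups did not overlap in these 3 genes, and in all 6 genes lay wholly below and 0 wholly above, where 25.8% and 4.5% of all genes did.

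In muscle, untreated trans/mdx mice against transgenic mice gave 16 genes above 0 and 17 below, from -0.69 to 0.62, with a median of -0.00, 0 of 33 genes and 0% of all genes called, and 0 genes at an unadjusted p below 0.05, where 2.3% of all genes were higher and 1.49% lower. Acot13 had 31.7 and 25.6 FPKM in untreated trans/mdx muscles and 15.1 and 21.7 FPKM in transgenic muscles (change 0.62, SE 0.34, limma adjusted p = 1). Eci2 had 2.28 and 8.77 FPKM in untreated trans/mdx muscles and 7.68 and 8.597 FPKM in transgenic muscles (change -0.69, SE 0.47), with untreated replicate 2 above both transgenic muscles. Fabp3 had 57.6 and 49.8 FPKM in untreated trans/mdx muscles and 85.6 and 60.9 FPKM in transgenic muscles (change -0.42, SE 0.40). Against mdx muscles, 26 of 33 genes were above 0, where 56.0% of all genes were. The median was 0.23, beside 0.07 over all genes. Called genes numbered 0 of 33 and 0% of all, and at an unadjusted p below 0.05 there were 2 genes higher and 0 lower, where 3.27% and 2.06% of all genes were. Cd36 had 13.1 and 17.1 FPKM in untreated trans/mdx muscles and 10.0 and 5.94 FPKM in mdx muscles (change 0.87, SE 0.34, limma adjusted p = 0.927). Lpl had 25.6 and 36.4 FPKM in untreated trans/mdx muscles and 25.2 and 11.2 FPKM in mdx muscles (change 0.82, SE 0.37, limma adjusted p = 0.929). Decr1 went the other way, with 4.66 and 5.24 FPKM in untreated trans/mdx muscles and 8.03 and 9.06 FPKM in mdx muscles (change -0.68, SE 0.35, limma adjusted p = 0.938). The groups did not overlap in these 3 genes, and in all 11 genes lay wholly above and 2 wholly below, where 20.1% and 13.9% of all genes did.

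UAA treatment was compared with no treatment in trans/mdx mice. In hearts, 31 of 34 genes were above 0, where 63.7% of all genes were. The median was 0.35, beside 0.15 over all genes. The adjusted test called 0 of 34 genes and 0% of all genes, and at an unadjusted p below 0.05 there was 1 gene higher and 0 lower, where 4.74% and 1.27% of all genes were. Ucp2 had 6.58 and 6.48 FPKM in treated hearts and 0.925 and 1.55 FPKM in untreated hearts. The treated pair agreed closely and stood well above the untreated pair, and the change was 1.77 (SE 0.49, limma adjusted p = 0.519). Ucp2 overlaps Dnajb13 on the other strand. Fabp3 had 769 and 1018 FPKM in treated hearts and 551 and 493 FPKM in untreated hearts (change 0.76, SE 0.38, limma adjusted p = 0.849). Etfa had 62.5 and 36.1 FPKM in treated hearts and 29.1 and 22.3 FPKM in untreated hearts (change 0.87, SE 0.46, limma adjusted p = 0.868). Both treated values exceeded both untreated values in 18 of the 34 genes, where 23.6% of all genes did so, and in 0 genes was it the reverse. After quantile normalization 25 of 34 genes were above 0 and the median was 0.10, where all genes stood at -0.02. The untreated hearts include the library with the lowest level of 16 genes, without which 24 genes were above 0 and the median was 0.25, beside 0.01 over all genes. The mitochondrial content list had a median of 0.40, with 20 of 22 genes above 0. Marker genes of cardiomyocytes were above 0 in 10 of 10, and the adipocyte list summed to 99.7 and 89.4 FPKM in treated hearts and 69.9 and 82.8 FPKM in untreated hearts. Fast skeletal fibre markers summed to 112 and 131 FPKM in treated hearts and 82.8 and 63.1 FPKM in untreated hearts. Their mean log2(FPKM + 1) was 1.64 and 1.83 in the treated hearts and 0.74 to 1.02 in all 8 other hearts. The treated pair thus stood apart in skeletal muscle markers by this mean. It did not by the sum, which was 151 FPKM in mdx replicate 2 and 133 FPKM in wild-type replicate 1. Macrophage markers summed to 12.7 and 17.4 FPKM in treated hearts and 10.6 and 6.80 FPKM in untreated hearts, and the brown adipocyte list to 169 and 270.1 FPKM in treated hearts and 109 and 101 FPKM in untreated hearts. The part of these in the values was not tested.

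In muscle the same treatment gave a median of 0.09 over 33 genes, beside 0.02 over all genes, with 0 genes of 33 and 0% of all genes called, and 1 gene higher and 0 lower at an unadjusted p below 0.05, where 1.98% and 2.01% of all genes were. Ucp3 had 15.9 and 18.8 FPKM in treated muscles and 10.6 and 6.29 FPKM in untreated muscles. These treated muscles had the 2 highest Ucp3 levels of all 10 muscles, and the change was 0.99 (SE 0.41, limma adjusted p = 1). Mlycd had 4.53 and 3.77 FPKM in treated muscles and 1.83 and 1.96 FPKM in untreated muscles (change 0.83, SE 0.48, limma adjusted p = 1). Ppara had 0.937 and 2.56 FPKM in treated muscles and 0.415 and 0.908 FPKM in untreated muscles (change 0.68, SE 0.45, limma adjusted p = 1), near the level of a few fragments. The groups did not overlap in these 3 genes, and in all 11 genes lay wholly above and 2 wholly below, where 17.9% and 14.8% of all genes did. Adipocyte markers summed to 384 and 275 FPKM in treated muscles and 474 and 653 FPKM in untreated muscles. In the same order, macrophage markers summed to 4.76 and 4.52 against 8.86 and 10.2 FPKM, and erythrocyte markers to 43.4 and 51.8 against 62.0 and 64.0 FPKM. Cardiomyocyte markers were higher with treatment, at 62.8 and 76.9 against 36.6 and 26.6 FPKM. By mean log2(FPKM + 1) the erythrocyte and cardiomyocyte lists overlapped. The part of these lists in the values was not tested. Pdk4, which is no member of the 34 but a known partner of fat use, had 40.0 and 65.9 FPKM in treated muscles and 21.4 and 19.4 FPKM in untreated muscles (change 1.29, SE 0.36, limma adjusted p = 0.980). In hearts it had 13.2 and 27.8 FPKM with treatment and 6.89 and 6.19 FPKM without (change 1.42, SE 0.45, limma adjusted p = 0.673). The difference of the treatment change between the tissues was called for 0 genes of the 34 and 0% of all genes. The smallest p belonged to Pnpla2 (0.90, SE 0.47), Slc27a1 (1.06, SE 0.57) and Etfa (0.99, SE 0.56), each with a limma adjusted p of 1. At an unadjusted p below 0.05 there were 0 genes in either direction, where 3.31% of all genes were higher and 1.25% lower.

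Treated trans/mdx mice were last set against transgenic mice, which carry the incorporation system without the mdx mutation and were not given UAA. In this comparison the mutation, the treatment and any mixed background left by the cross cannot be told apart. In hearts the median change was 0.09, 0 of 34 genes and 0% of all genes were called, and 0 had an unadjusted p below 0.05, where 2.26% were higher and 1.57% lower. Pnpla2 had 18.4 and 26.4 FPKM in treated hearts and 19.2 and 11.6 FPKM in transgenic hearts (change 0.53, SE 0.42), Ucp2 had 6.58 and 6.48 FPKM in treated hearts and 7.24 and 2.11 FPKM in transgenic hearts (change 0.57, SE 0.49), and Hadh had 15.1 and 27.9 FPKM in treated hearts and 37.4 and 23.1 FPKM in transgenic hearts (change -0.50, SE 0.48), each with a limma adjusted p of 1 and with overlap. In muscle the median was 0.15, 0 of 33 genes and 0% of all genes were called, and at an unadjusted p below 0.05 there was 1 gene higher and 0 lower, where 2.87% and 1.99% of all genes were. That gene was Ppara, with 0.937 and 2.56 FPKM in treated muscles and 0.418 and 0 FPKM in transgenic muscles (change 1.14, SE 0.45, limma adjusted p = 0.985). Ucp3 had 15.9 and 18.8 FPKM in treated muscles and 9.22 and 9.74 FPKM in transgenic muscles (change 0.80, SE 0.41, limma adjusted p = 1). Eci2 had 5.79 and 4.28 FPKM in treated muscles and 7.68 and 8.597 FPKM in transgenic muscles (change -0.61, SE 0.47, limma adjusted p = 1). The groups did not overlap in Ppara, Ucp3 or Eci2, and in all 9 genes lay wholly above and 5 wholly below, where 21.2% and 14.5% of all genes did.

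Of the other genes of the pathway, 91 were tested in hearts and 97 in muscles, and 0 were called in any of the 12 comparisons, in which at most 0.0121% of all genes were called. Their median change was -0.46 in mdx against wild-type muscle, beside -0.74 for the 34 genes. It was 0.23 in treated against untreated trans/mdx hearts, beside 0.35, and -0.11 in untreated trans/mdx against transgenic hearts, beside -0.33. Over the other 9 comparisons it lay between -0.33 and 0.26, beside -0.48 to 0.23 for the 34 genes. Over all 20 libraries, the genes whose log2(FPKM + 1) was most like the mean of the 34 were Cox6c, a subunit of cytochrome oxidase, Hspa9, the mitochondrial chaperone, and Atp5f1, a subunit of ATP synthase, by Pearson correlation (0.980, 0.958 and 0.955). Within the 10 hearts the correlations were 0.907, 0.917 and 0.865, and within the 10 muscles 0.957, 0.916 and 0.842. The points share library scaling and depth, and these values are a description.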

How the data were processed

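Total RNA from hearts and TA muscles was depleted of ribosomal RNA and made into directional libraries, per the labels' protocols. Of the tools in the submitters' processing notes, HISAT2 (2.0.4) and cutadapt (1.9.3) have a version and Cuffdiff and Cufflinks have none; mm10 is the build, and the role of each is not given. The values used are FPKM per gene, which the authors deposited as 1 table of 20 libraries; the unit was read from the values and the tools named. Coordinates and overlapping genes came from GENCODE M21, in which all 34 genes were found. The 34 genes and all lists were chosen with earlier results of these data known. Levels were tested as log2(FPKM + 1) with limma 3.58.1 in R 4.3.3 (intensity trend, two-sided, Benjamini-Hochberg over all genes tested, threshold 0.05), keeping genes at 1 FPKM or more in at least 2 libraries fitted. Tissues, and differences between tissues, were fitted on 20 libraries (10 residual degrees of freedom), and groups within a tissue on 10 (5 degrees). Full statistics are given for the 6 called genes with the largest difference in each direction between tissues, and otherwise for the 3 genes with the smallest p; other genes were chosen by p from each list, with Pdk4, Angptl4 and Fabp4 added. Angptl4 did not pass the test between tissues (-0.20, adjusted p = 0.358). The fit was tested on simulated data. No pair of libraries held identical values. Alternatives were a pseudocount of 0.1, no filter, a mean of at least 5 FPKM, 3 scalings, a replicate block, other sets of libraries and each library left out. With FPKM alone, counting error cannot be given per value.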

Additional observations from a re-analysis of the deposited data

How the results depend on the processing

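Each library was left out in turn, and a pseudocount of 0.1, 2 other filters, 3 scalings, a replicate block and other sets of libraries were tried. The number of the 34 genes higher in heart ranged from 22 to 29 over all of these, and Fabp3, Lpl and Ucp3 kept their direction and stayed past the threshold. The number lower in heart was 1 after conversion to TPM, after quantile normalization, after median-of-ratios scaling and with the replicate block, and ranged from 1 to 4 when single libraries were left out (4 without mdx heart replicate 2 and without wild-type muscle replicate 1). The median difference was 1.41, 1.38 and 1.36 under the 3 scalings. The first of these, for TPM, also reflects a smaller weight of the added 1, since TPM values are larger than FPKM values here. Pnpla2 changed sign, to 0.0206, after quantile normalization. For muscle, the median change of mdx against wild type was -0.35 (quantile) and -0.34 (median of ratios), and ranged from -1.12 to -0.52 with single libraries left out. That of transgenic against wild type was -0.0934 (quantile), -0.0756 (median of ratios) and -0.22 without the 2 libraries with the most peak values, an alternative added after seeing the data, and ranged from -0.77 to -0.22. Leaving out those 2 libraries gave -0.47 for mdx against wild type and 0.0864 for untreated trans/mdx against mdx in hearts, and -0.0471 for the difference of the mdx change between tissues. That difference was 0.17 (quantile) and 0.21 (median of ratios). With single libraries left out, the medians ranged from -0.47 to 0.44 for mdx against wild-type hearts, from -0.80 to 0.0864 for untreated trans/mdx against mdx hearts, from 0.27 to 1.15 for the mdx difference between tissues and from 0.11 to 0.80 for the transgenic one. Ucp2 in treated trans/mdx against transgenic hearts ranged from -0.13 to 1.28, and Eci2 in untreated trans/mdx against transgenic muscles from -1.48 to 0.0984. The cause of these shifts was not tested. None of the alternatives called any of the 34 genes within a tissue.

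Deviations of same-numbered libraries of different groups correlated between -0.08 and 0.05 within a tissue. For a heart and a muscle of the same group and number the correlation was between -0.02 and 0.01. These values gave no sign that the replicate numbers pair the samples. With 2 libraries per group they cannot show that the samples are unpaired. With the replicate block 23 genes were higher in heart. The 2 libraries per group, few fragments for Plin5, Acot2, Cpt1a, Ppara and Ucp2 in muscle, and a depth known only from the spacing of values limit what small changes can be seen.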
